A study of Caenorhabditis elegans with 44 samples.

Results

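Messenger RNA of synchronized first-stage (L1) larvae of *C. elegans* was compared between animals that lack RRF-3, the RNA-dependent RNA polymerase of the 26G small RNA pathway, and wild type. The members are the 5 mRNA libraries of these 2 genotypes in the N2 background, 3 of *rrf-3(pk1426)* and 2 of wild type, out of 44 libraries in the whole series, and all 18986 genes that passed the filter on low counts out of 22013 entries are described. Wild type was strain N2, and *rrf-3(pk1426)* was strain NL2099, in which part of the *rrf-3* gene is deleted in every cell. Neither genotype carried the reporter transgene of the other tables. Libraries of *pals-22(pig26)* (strain BFF144, 3 libraries) and of the *rrf-3(pk1426); pals-22(pig26)* double mutant (strain BFF297, 2 libraries) were sequenced in the same table, shared the estimate of the spread and serve for 1 further comparison. Whole larvae were used, hatched without food in buffer from bleached embryos (the labels name OP-50 bacteria as the food of the cultures), and poly(A) RNA was sequenced from both ends. The labels do not say whether libraries of a genotype came from separate cultures, so p values measure the spread between these libraries, which may be technical. In RNA of whole animals, fewer cells of a type and less RNA per cell cannot be told apart.

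26G RNAs are antisense small RNAs that RRF-3 makes on mRNA templates, together with the Dicer enzyme DCR-1 and its partners in the ERI complex. In the female germ line and the embryo they are loaded into the Argonaute ERGO-1, and in sperm-producing germ cells into ALG-3 and ALG-4. Their targets are then copied by other RNA-dependent RNA polymerases into abundant secondary 22G RNAs, which repress the target. Worms without RRF-3 respond more strongly to introduced double-stranded RNA, which is commonly put down to competition between the 26G pathway and other small RNA pathways for shared proteins.

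Each library held 41843772 to 61806727 estimated counts. Levels are given in CPM, estimated counts over the library total and its TMM scaling factor, and this factor was 0.838 and 0.839 in wild type and 1.08 to 1.26 in *rrf-3(pk1426)*. A count of 0 allows up to 3 counts, 0.0449 to 0.0769 CPM in these libraries, and reads were not marked by molecule, so this floor covers counting error only. Correlations of log2 CPM across genes were 0.975 between the wild-type libraries, 0.978 to 0.982 among the *rrf-3(pk1426)* libraries and 0.913 to 0.945 between genotypes. The *rrf-3* gene itself (chrII:8162465-8168651, plus strand) was at 5.46 and 6.29 CPM in wild type and 1.91, 1.99 and 1.97 CPM in *rrf-3(pk1426)* (log2 fold change -1.58, SE 0.151, adjusted p = 5.27e-05). Every *rrf-3(pk1426)* library was below both wild-type libraries, as in 39.8% of all genes tested. The estimate covers the whole gene and was not split by the deleted part, and an annotated gene on the other strand, *T05C12.11*, overlaps it.

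Most of the transcriptome differed between the genotypes. At an adjusted p under 0.1 in edgeR's quasi-likelihood test, 12859 of 18986 genes (67.7%) were called, 6055 higher (31.9%) and 6804 lower (35.8%) in *rrf-3(pk1426)*, and the median log2 fold change over all genes was -0.02. Large changes were mostly rises, with 1886 genes (9.93%) over 4-fold higher and 187 (0.985%) over 4-fold lower. The balance of both directions depended on the scaling, since library totals alone gave 9071 higher and 3110 lower genes, so that 74.5% of calls were rises instead of 47.1%, and moved the median of all genes to 0.43. Upper-quartile factors gave 56.9% rises and a median of 0.15. Changes are therefore read beside the median of all genes, and the value with library totals alone is given beside most list medians. Counts of called members are read beside the shares of all genes, 31.9% higher and 35.8% lower. Because CPM include the TMM factor, the sum over all genes was 1191341 to 1194097 CPM in wild type and 793153 to 924159 CPM in *rrf-3(pk1426)*. Summed levels of lists are read beside it.

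The direction went with the level of a gene. Among 4538 genes with a mean under 1 CPM over the 5 libraries, 35.2% were called higher and 6.81% lower, with a median log2 fold change of 0.97. Among the 7175 genes at 10 to 100 CPM the shares were 25.3% and 52.9% (median -0.26), and among the 148 genes at 1000 CPM or more they were 2.7% and 92.6% (median -0.65). With library totals alone these medians were 1.44, 0.21 and -0.19, so the order of the level classes stayed. The filter on low counts used all 4 genotypes, so a gene without reads in wild type was tested only where mutant libraries held enough counts. Of 330 tested genes at 0 in both wild-type libraries, 134 were called higher. The part of this rule in the split of low genes was not tested. Of the 1886 genes over 4-fold higher, 1403 (74.4%) had a wild-type mean under 1 CPM, and 546 reached 5 CPM in *rrf-3(pk1426)*. The most frequent names among them were *fbxa* (33 of 155 tested), *clec* (27 of 155), *srh* (25 of 91), *fbxb* (22 of 72) and *str* (20 of 72). Of these, *fbxa* and *fbxb* encode F-box proteins, *clec* C-type lectins, and *srh* and *str* chemoreceptors. Such counts follow family size. Of all genes tested 9.93% rose this far, and smaller families had larger shares, such as *bath* (16 of 35) and *pals* (15 of 38).

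By biotype, pseudogenes were called higher more often than lower, 438 (37.3%) against 211 (18.0%) of 1173 tested (median log2 fold change 0.67, 1.13 with library totals alone). Of all 2103 pseudogene entries, tested or not, 1533 had means under 1 CPM in both genotypes. Under 1 CPM, rises outnumbered falls among all genes too, and the parts of level and of the filter in this split were not tested. The summed level of pseudogenes overlapped, at 11207 to 12534 CPM in wild type and 11121 to 13307 CPM in *rrf-3(pk1426)*, while the sum over all genes was lower. Protein-coding genes gave 5587 (31.6%) and 6558 (37.1%) of 17691 (median -0.05, 0.41 with library totals alone). Of the few noncoding genes in this poly(A) table, 3 of 8 lincRNAs (median log2 fold change 0.06, 0.53 with library totals alone) and 3 of 4 ncRNAs (median log2 fold change 2.37, 2.83 with library totals alone) were called higher and 0 lower. The ncRNAs were low, with sums of 0.487 to 2.08 CPM in wild type and 3.23 to 4.93 CPM in *rrf-3(pk1426)*. Their 3 calls became 2 without wild-type replicate 2 and without *rrf-3(pk1426)* replicate 1 or 2. The autosomes differed little, with 27.9% to 35.1% of genes higher and 33.8% to 35.5% lower, while on the X chromosome 29.0% of 2645 genes were higher and 43.4% lower (median log2 fold change -0.20, 0.26 with library totals alone). Of the 12 protein-coding genes of the mitochondrial genome 11 were called lower (median log2 fold change -0.89, -0.41 with library totals alone), but 4 were called without wild-type replicate 1, 7 without wild-type replicate 2 or *rrf-3(pk1426)* replicate 1, and 1 with library totals alone. Their share of the library totals overlapped between genotypes, at 0.863% and 0.977% in wild type and 0.544%, 1.03% and 0.622% in *rrf-3(pk1426)*.

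**Figure D1:**
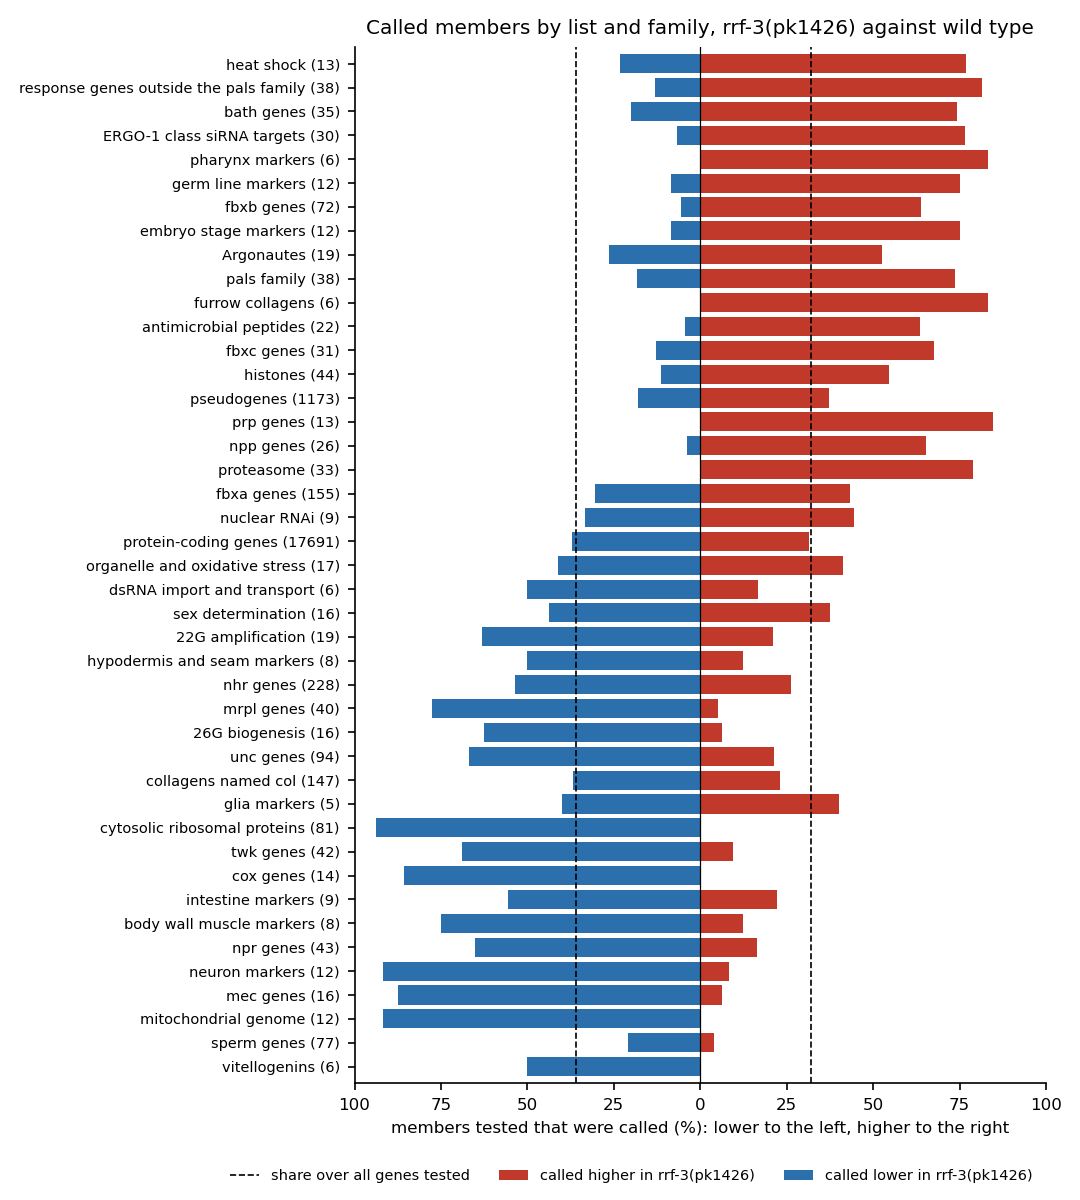
Shares of tested members called higher (to the right, in percent) and lower (to the left, in percent) in *rrf-3(pk1426)* for gene lists and name families, ordered by their median log2 fold change, with the shares over all genes as dashed lines. F-box, BATH, *pals*, heat shock and ERGO-1 target genes lie past the 31.9% line on the right, and ribosomal, mitochondrial and neuron genes past the 35.8% line on the left.

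The plot of shares sets these groups side by side. Targets of ERGO-1 class siRNAs, many of them pseudogenes or duplicated genes of unknown function, were a group of rises. Of 30 tested targets, 23 (76.7%) were called higher and 2 (6.67%) lower (median log2 fold change 1.79, 2.25 with library totals alone), against 31.9% and 35.8% of all genes, and 14 were over 4-fold higher. Their summed level was 466 to 479.8 CPM in wild type and 1109 to 1193 CPM in *rrf-3(pk1426)*. Antisense small RNAs over 5 RPM (reads over the library total) were counted in wild-type larvae for 28 of the 30, with a median of 427 RPM. Another entry of the list, *C40A11.10*, was not analysed here.

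*E01G4.5* (chrII:13472401-13473995, plus strand), a target used to read out this pathway, was at 3.18 and 2.13 CPM in wild type and 153, 140 and 165 CPM in *rrf-3(pk1426)* (log2 fold change 5.85, SE 0.174, adjusted p = 1.44e-06). The neighbouring genes *F55C9.3* and *F55C9.5* rose further. *F55C9.3* (chrV:19287009-19288173, minus strand) was at 0.154 and 0.0458 CPM in wild type and 31.7, 31.9 and 25.3 CPM in *rrf-3(pk1426)* (log2 fold change 8.22, SE 0.412, adjusted p = 5.39e-06), and *F55C9.5* (chrV:19290574-19293125, minus strand) was at 0.897 and 0.32 CPM in wild type and 67.7, 58.1 and 46.1 CPM in *rrf-3(pk1426)* (log2 fold change 6.58, SE 0.522, adjusted p = 2.48e-05). The pseudogene *F39E9.7* (chrII:3306144-3307505, minus strand) was at 15.4 and 14.8 CPM in wild type and 150.3, 162 and 121 CPM in *rrf-3(pk1426)* (log2 fold change 3.26, SE 0.139, adjusted p = 3.5e-06), and the pseudogene *H16D19.4* (chrI:12641603-12642187, minus strand) at 4.02 and 4.53 CPM in wild type and 19.4, 20 and 16.4 CPM in *rrf-3(pk1426)* (log2 fold change 2.12, SE 0.16, adjusted p = 2e-05). In none of these 5 genes did the groups overlap. Over all genes tested, every *rrf-3(pk1426)* library was above both wild-type libraries in 37.2% and below both in 39.8%.

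Other targets lay close to wild type. *K02E2.6* (chrV:20380561-20382036, plus strand) was at 60.6 and 61.5 CPM in wild type and 70, 68.7 and 71.3 CPM in *rrf-3(pk1426)* (log2 fold change 0.20, adjusted p = 0.0454), and *C44B11.6* (chrIII:3153148-3153336, plus strand) was at 63.3 and 64 CPM in wild type and 56.8, 57.9 and 56.8 CPM in *rrf-3(pk1426)* and was not called. The pseudogene *F55A4.4* fell, at 45.6 and 45.4 CPM in wild type and 22.5, 22.6 and 33.3 CPM in *rrf-3(pk1426)* (log2 fold change -0.80, SE 0.166, adjusted p = 0.00305), and it shares 46.1% of its 31-base words with the overlapping gene *F55A4.3*, so its reads may be split between them. The other target called lower, *Y37E11B.2*, was at 31.5 and 31.9 CPM in wild type and 28.6, 26.9 and 30 CPM in *rrf-3(pk1426)* (log2 fold change -0.15, SE 0.0684, adjusted p = 0.081), and its change was positive with library totals alone (0.31) and with upper-quartile factors (0.02). Within the list, rises thus ranged from the large one of *F55C9.3* to values close to wild type.

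**Figure D2:**
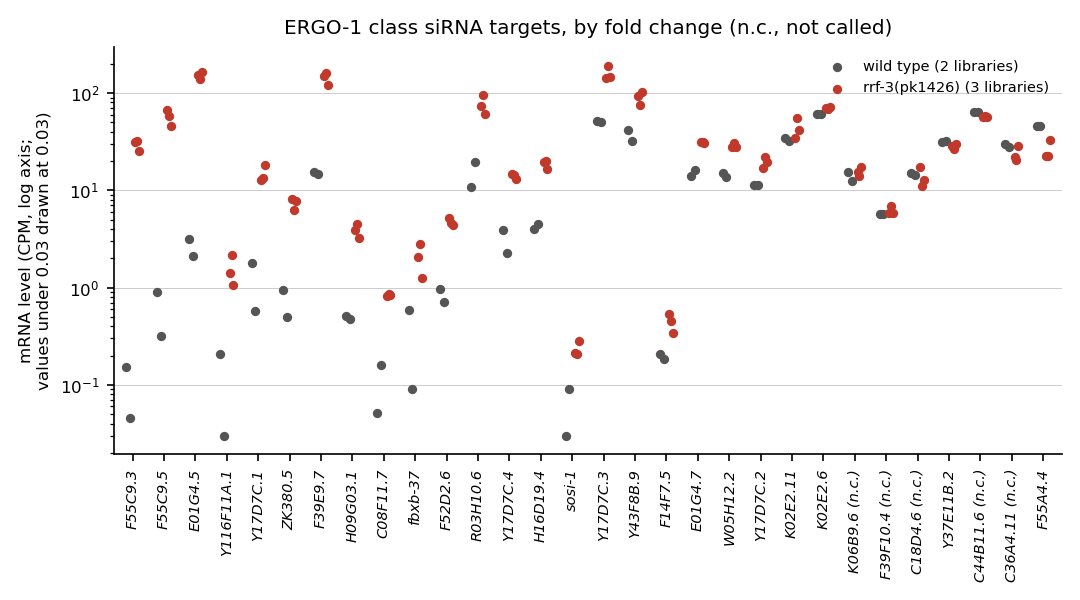
Levels of the 30 ERGO-1 class targets in each library, in CPM on a logarithmic axis, with wild type and *rrf-3(pk1426)* libraries as points, values under 0.03 drawn at 0.03 and genes marked n.c. where no change was called. Genes stand in the order of their fold change, with wide gaps between genotypes at one end (*F55C9.3*, *E01G4.5*) and points that lie together toward the other.

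In the plot of ERGO-1 targets the wild-type points spread more at low levels, where few reads were counted. Other genes rose by amounts like these without being on that list. *T16A1.10* (chrII:2091539-2092094, minus strand) was at 1.18 and 0.961 CPM in wild type and 90.5, 85.2 and 68.4 CPM in *rrf-3(pk1426)* (log2 fold change 6.25, SE 0.633, adjusted p = 6.94e-05), and it lies beside *fbxb-37* (chrII:2092578-2093876, minus strand), a target on the list that was at 0.589 and 0.0915 CPM in wild type and 2.06, 2.82 and 1.26 CPM in *rrf-3(pk1426)*. *T02G6.10* (chrI:11824976-11825787, minus strand) was at 2.05 and 2.01 CPM in wild type and 52.9, 57 and 42.2 CPM in *rrf-3(pk1426)* (log2 fold change 4.64, SE 0.167, adjusted p = 2.62e-06), and *Y105C5A.1271* at 0.41 and 0.343 CPM in wild type and 10.9, 12.8 and 10.9 CPM in *rrf-3(pk1426)* (log2 fold change 4.93, SE 0.176, adjusted p = 2.62e-06). Of *sdz-1*, named for dependence on SKN-1 in the zygotic period, the level was 0.231 and 0.275 CPM in wild type and 6.84, 8.66 and 6.19 CPM in *rrf-3(pk1426)* (log2 fold change 4.82, SE 0.259, adjusted p = 6.11e-06).

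A pair of chemoreceptor genes of the *srh* family on chromosome V passed from no or almost no reads to a clear level. *srh-290* (chrV:17790491-17792470, plus strand) was at 0 and 0 CPM in wild type and 5.75, 5.25 and 7.15 CPM in *rrf-3(pk1426)*, which is at least 68.3-fold higher by the lowest mutant library and the floor of 3 counts per library. *srh-287* (chrV:17800838-17801906, plus strand) was at 0 and 0.0458 CPM in wild type and 6.89, 6.9 and 8.42 CPM in *rrf-3(pk1426)* (adjusted p = 3.07e-05). Among the other large rises, *C08E3.15* was at 2.13 and 0 CPM in wild type and 32.5, 26.3 and 27.7 CPM in *rrf-3(pk1426)* and *W04G5.16* at 0.564 and 0 CPM in wild type and 8.25, 7.43 and 5.43 CPM in *rrf-3(pk1426)*, while *Y49E10.30* was at 0.436 and 0.252 CPM in wild type and 15.3, 7.26 and 11.6 CPM in *rrf-3(pk1426)*. *C08E3.15* and *Y49E10.30* share 70.4% and 73.9% of their words with another gene, so their values are uncertain.

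The *pals* genes and the genes induced with them by intracellular infection or proteotoxic stress, the intracellular pathogen response, formed another group of rises. Of 38 *pals* genes 28 (73.7%) were called higher and 7 (18.4%) lower, against 31.9% and 35.8% of all genes (median log2 fold change 1.33, 1.80 with library totals alone). Their summed level was 273 to 289 CPM in wild type and 445 to 526 CPM in *rrf-3(pk1426)*. Of 38 response genes outside the family 31 (81.6%) were called higher and 5 (13.2%) lower (median log2 fold change 2.05, 2.52 with library totals alone). The groups of these genes are described by counts only, as no test of a list was made. *pals-1* was at 0.205 and 0.252 CPM in wild type and 3.36, 3.2 and 2.68 CPM in *rrf-3(pk1426)* (log2 fold change 3.73, SE 0.157, adjusted p = 3.5e-06) and *pals-29* at 1.08 and 1.4 CPM in wild type and 9.81, 10.6 and 8.63 CPM in *rrf-3(pk1426)* (log2 fold change 2.96, SE 0.138, adjusted p = 4.9e-06). *pals-11* was at 0.512 and 0.549 CPM in wild type and 5.92, 6.75 and 5.35 CPM in *rrf-3(pk1426)* (log2 fold change 3.49, adjusted p = 3.5e-06). In all 3 genes every *rrf-3(pk1426)* library was above both wild-type libraries, as in 37.2% of all genes tested.

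The *pals* genes called lower included the pair that regulates the response. *pals-22*, its repressor, which was named here after its values were seen, was at 26.5 and 26.8 CPM in wild type and 21, 21.5 and 22.3 CPM in *rrf-3(pk1426)* (log2 fold change -0.30, SE 0.0672, adjusted p = 0.00416), and *pals-25*, its activating partner, at 15.2 and 15.9 CPM in wild type and 11.3, 10.6 and 12.2 CPM in *rrf-3(pk1426)* (log2 fold change -0.45, SE 0.0713, adjusted p = 0.000736). Both changes turned positive with library totals alone, at 0.16 and 0.01. *pals-18* (log2 fold change -1.14, adjusted p = 5.19e-05), *pals-19* (log2 fold change -0.87, adjusted p = 8.96e-05) and *pals-31* (log2 fold change -0.73, adjusted p = 5.7e-05) fell by more. Among the other response genes, *eol-1*, an RNA-decapping enzyme homolog, was at 4.94 and 6.22 CPM in wild type and 42.2, 43.9 and 31.3 CPM in *rrf-3(pk1426)* (log2 fold change 2.81, SE 0.17, adjusted p = 8.73e-06), and *skr-4*, a Skp1-like subunit of cullin ubiquitin ligases, at 4.28 and 3.77 CPM in wild type and 19.6, 18.9 and 15.3 CPM in *rrf-3(pk1426)* (log2 fold change 2.15, SE 0.123, adjusted p = 7.39e-06). *Y37H2A.14* reached a higher level than these, at 12.1 and 9.97 CPM in wild type and 99.9, 105 and 97.8 CPM in *rrf-3(pk1426)* (log2 fold change 3.20, SE 0.179, adjusted p = 7.01e-06). The gene of the transcription factor ZIP-1, which acts in this response, fell, at 55.2 and 58.8 CPM in wild type and 29.7, 24.8 and 37.2 CPM in *rrf-3(pk1426)* (log2 fold change -0.90, SE 0.141, adjusted p = 0.00067).

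Most genes of the 26G machinery were lower on the TMM scale. Of 16 such genes, *rrf-3* among them, 1 (6.25%) was called higher and 10 (62.5%) lower, against 31.9% and 35.8% of all genes. The median log2 fold change was -0.43, which turned to 0.03 with library totals alone, where 4 were called in each direction. The largest fall after *rrf-3* was in *eri-6*, 1 part of the trans-spliced helicase ERI-6/7, at 39.6 and 44 CPM in wild type and 21.7, 20.3 and 23.2 CPM in *rrf-3(pk1426)* (log2 fold change -0.94, SE 0.0938, adjusted p = 6.36e-05). *eri-7*, the other part, was at 19.1 and 18 CPM in wild type and 9.78, 10.6 and 11.3 CPM in *rrf-3(pk1426)* (log2 fold change -0.81, SE 0.0861, adjusted p = 8.49e-05). The Argonaute gene *ergo-1* was at 23.3 and 27.1 CPM in wild type and 14.3, 16.2 and 16.3 CPM in *rrf-3(pk1426)* (log2 fold change -0.69, SE 0.137, adjusted p = 0.00245). *gtsf-1* (log2 fold change -0.67, adjusted p = 0.000518), *eri-3* (log2 fold change -0.63, adjusted p = 0.00282), *eri-9* (log2 fold change -0.58, adjusted p = 0.000873) and *dcr-1* (log2 fold change -0.51, adjusted p = 0.0179) fell too, but *ergo-1*, *eri-3*, *eri-9* and *dcr-1* were not called with library totals alone, nor *dcr-1* without wild-type replicate 2 (-0.40, adjusted p = 0.12), and *eri-1* (log2 fold change -0.36, adjusted p = 0.00266) and *pir-1* (log2 fold change -0.31, adjusted p = 0.00467) fell on the TMM scale but had positive changes with library totals alone (0.10 and 0.16). *drh-3* (log2 fold change -0.08, adjusted p = 0.452), *henn-1* (log2 fold change 0.03, adjusted p = 0.819) and *eri-5* (log2 fold change 0.23, adjusted p = 0.506) were not called. The member called higher was *rde-4*, the double-stranded RNA binding partner of Dicer, at 14.2 and 13.9 CPM in wild type and 28.6, 30.7 and 25.3 CPM in *rrf-3(pk1426)* (log2 fold change 1.01, SE 0.0894, adjusted p = 3.83e-05). *alg-3* and *alg-4*, the sperm Argonautes of the pathway, were at or near the floor in all 5 libraries, at most 0.0764 and 0.179 CPM.

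Argonaute genes, whose proteins bind small RNAs, moved in both directions. Of 19, 10 (52.6%) were called higher and 5 (26.3%) lower, against 31.9% and 35.8% of all genes. The median log2 fold change was 1.36, 1.83 with library totals alone, where none was called lower. *vsra-1*, whose Argonaute binds secondary small RNAs, was at 17.8 and 19.4 CPM in wild type and 44.7, 45.7 and 38.7 CPM in *rrf-3(pk1426)* (log2 fold change 1.21, SE 0.0972, adjusted p = 2.58e-05). *sago-2* was at 2.74 and 2.08 CPM in wild type and 20.9, 18.9 and 19.6 CPM in *rrf-3(pk1426)* (log2 fold change 3.04, SE 0.115, adjusted p = 3.31e-06) and *ppw-1* at 13.6 and 14.7 CPM in wild type and 47.5, 41.2 and 41.8 CPM in *rrf-3(pk1426)* (log2 fold change 1.62, SE 0.0929, adjusted p = 7.39e-06). These 2 genes of cytoplasmic secondary Argonautes share 80.4% and 73.3% of their words with each other, so the split between them is uncertain, though both were higher in all 3 mutant libraries. *hrde-1*, the nuclear Argonaute of the germ line, was at 1.36 and 1.05 CPM in wild type and 6.64, 7.17 and 5.73 CPM in *rrf-3(pk1426)* (log2 fold change 2.43, SE 0.277, adjusted p = 0.000121), and *ppw-2* at 0.538 and 0.389 CPM in wild type and 2.52, 2.37 and 1.97 CPM in *rrf-3(pk1426)* (log2 fold change 2.30, SE 0.227, adjusted p = 6.14e-05). *rde-1*, the primary Argonaute of introduced double-stranded RNA, fell, at 32.9 and 31.5 CPM in wild type and 20.4, 19.9 and 22.2 CPM in *rrf-3(pk1426)* (log2 fold change -0.63, SE 0.067, adjusted p = 8.91e-05), as did the miRNA Argonaute *alg-1* (log2 fold change -0.69, adjusted p = 0.000861) and *csr-1* (log2 fold change -0.50, adjusted p = 0.00821).

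Genes of 22G amplification gave 4 calls higher (21.1%) and 12 lower (63.2%) of 19, against 31.9% and 35.8% of all genes. Their median of -0.22 turned to 0.25 with library totals alone, where 9 were higher and 0 lower. The 12 became 6 without wild-type replicate 2 and 7 and 5 without *rrf-3(pk1426)* replicates 1 and 2. *nyn-1*, which encodes an NYN-domain nuclease of RNAi, was at 0.922 and 0.846 CPM in wild type and 3.9, 3.49 and 3.01 CPM in *rrf-3(pk1426)* (log2 fold change 1.97, SE 0.184, adjusted p = 4.95e-05), and *mut-7*, an exonuclease of the mutator complex, at 2.84 and 2.91 CPM in wild type and 6.64, 7.85 and 6.28 CPM in *rrf-3(pk1426)* (log2 fold change 1.27, SE 0.144, adjusted p = 0.00012). *rde-8*, another nuclease, was at 20.6 and 19.1 CPM in wild type and 12.9, 12.4 and 13 CPM in *rrf-3(pk1426)* (log2 fold change -0.64, SE 0.0766, adjusted p = 0.000164). Of 9 nuclear RNAi genes 4 (44.4%) were higher and 3 (33.3%) lower, against 31.9% and 35.8% of all genes. Their median log2 fold change was 0.11, 0.57 with library totals alone, where 6 were higher and 0 lower. The 3 lower calls became 1 without either wild-type replicate 2 or *rrf-3(pk1426)* replicate 2. Among them the histone methyltransferase gene *set-32* rose, at 0.256 and 0.229 CPM in wild type and 1.18, 1.18 and 0.972 CPM in *rrf-3(pk1426)* (log2 fold change 2.18, SE 0.315, adjusted p = 0.000421), and *nrde-4* was at 18.4 and 18.5 CPM in wild type and 13.3, 13.4 and 13.6 CPM in *rrf-3(pk1426)* (log2 fold change -0.46, SE 0.0575, adjusted p = 0.000204), with a change of 0.01 with library totals alone. The double-stranded RNA channel gene *sid-1* was at 2.89 and 3.29 CPM in wild type and 4.93, 5.12 and 4.46 CPM in *rrf-3(pk1426)* (log2 fold change 0.64, SE 0.13, adjusted p = 0.00266), the 1 rise of 6 import genes (median log2 fold change -0.14, 0.32 with library totals alone), and *rsd-3* was at 81.8 and 89.4 CPM in wild type and 55.9, 59 and 55.3 CPM in *rrf-3(pk1426)* (log2 fold change -0.59, SE 0.0711, adjusted p = 0.000159), 1 of the 3 falls. With library totals alone 3 import genes were higher and 0 lower, and *rsd-3* was not called (-0.13, adjusted p = 0.392), nor was *rde-8* (-0.17, adjusted p = 0.166).

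**Figure D3:**
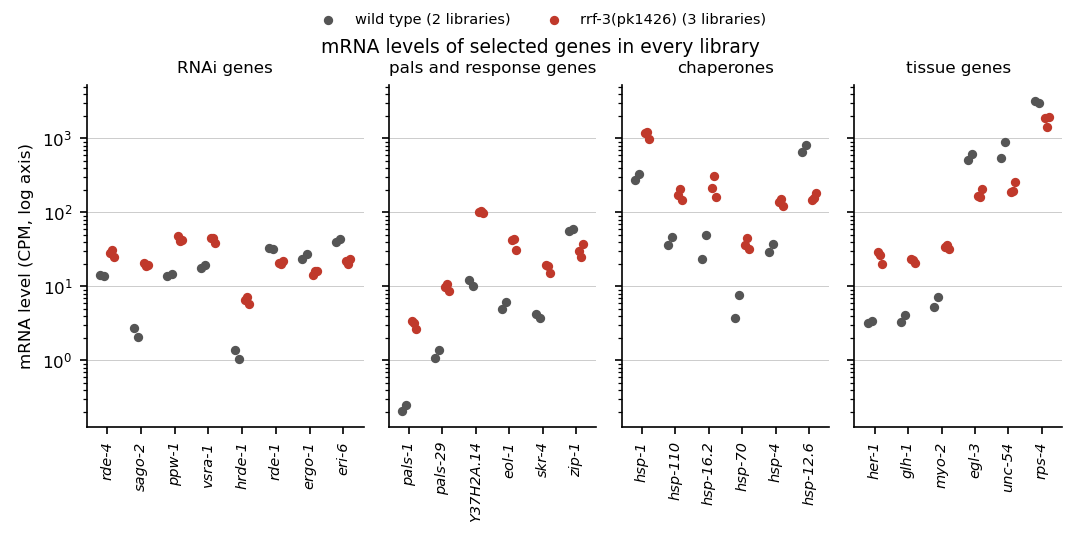
Levels of named genes in each library, in CPM on logarithmic axes, in 4 panels of small RNA genes, *pals* and response genes, stress genes, and tissue and other genes, with 1 point per library of wild type and *rrf-3(pk1426)*. The *rrf-3(pk1426)* points of *sago-2*, *pals-1*, *hsp-1* and *her-1* lie above both wild-type points, and those of *rde-1*, *zip-1*, *hsp-12.6* and *egl-3* lie below them.

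In the panels of levels by library, the replicates of a genotype lie closer together than the genotypes for most genes shown. Large families of predicted ubiquitin ligase adaptors had more rises than falls. The related *math* (15 higher and 13 lower of 34) and *btb* (5 and 4 of 15) families were nearly even. BATH proteins carry a BTB domain, which binds Cullin-3, and a MATH domain, and of 35 tested *bath* genes 26 (74.3%) were called higher and 7 lower (median log2 fold change 1.81, 2.28 with library totals alone), although their summed level was alike at 347 to 355 CPM in wild type and 337 to 361 CPM in *rrf-3(pk1426)*. The sum over all genes was lower. *bath-29* was at 0.82 and 0.755 CPM in wild type and 7.47, 8.45 and 5.43 CPM in *rrf-3(pk1426)* (log2 fold change 3.17, SE 0.241, adjusted p = 2.08e-05) and *bath-36* at 0.948 and 1.14 CPM in wild type and 3.46, 3.94 and 3.29 CPM in *rrf-3(pk1426)* (log2 fold change 1.76, SE 0.135, adjusted p = 2.19e-05). F-box genes of the *fbxb* family gave 46 higher (63.9%) and 4 lower of 72 (median log2 fold change 1.57, 2.03 with library totals alone), those of *fbxc* 21 and 4 of 31 (median log2 fold change 0.89, 1.36 with library totals alone), and those of *fbxa* 67 (43.2%) and 47 (30.3%) of 155 (median log2 fold change 0.33, 0.79 with library totals alone). *fbxc-58* was at 4.56 and 4.35 CPM in wild type and 26.8, 41.1 and 21.3 CPM in *rrf-3(pk1426)* (log2 fold change 2.74, SE 0.273, adjusted p = 6.49e-05) and *fbxc-55* at 0.128 and 0.229 CPM in wild type and 3.88, 3.01 and 2.83 CPM in *rrf-3(pk1426)* (log2 fold change 4.15, SE 0.361, adjusted p = 3.57e-05).

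Genes of the proteasome, of splicing and of the nuclear pore mostly rose, with medians under 2-fold. Of 33 proteasome subunit genes 26 were called higher and 0 lower (median log2 fold change 0.36, 0.83 with library totals alone). *rpn-3*, of the regulatory particle, was at 42.5 and 44.8 CPM in wild type and 93.8, 95.9 and 78.9 CPM in *rrf-3(pk1426)* (log2 fold change 1.04, SE 0.0916, adjusted p = 3.79e-05) and *rpt-2*, an ATPase of its base, at 30.3 and 31.5 CPM in wild type and 49.5, 47.3 and 46.4 CPM in *rrf-3(pk1426)* (log2 fold change 0.63, SE 0.057, adjusted p = 4.23e-05). Of 13 *prp* genes, which encode splicing factors, 11 were higher and 0 lower (median log2 fold change 0.54, 1.00 with library totals alone), with *prp-31* at 30.9 and 34 CPM in wild type and 88.6, 94.4 and 79.5 CPM in *rrf-3(pk1426)* (log2 fold change 1.43, SE 0.0867, adjusted p = 8.66e-06). Of 26 *npp* genes for nuclear pore proteins 17 were higher and 1 lower (median log2 fold change 0.41, 0.88 with library totals alone), with *npp-9* at 28.3 and 37.4 CPM in wild type and 99.9, 110.2 and 91.6 CPM in *rrf-3(pk1426)* (log2 fold change 1.61, SE 0.176, adjusted p = 0.0001). Other name families with more rises than falls had larger medians. Receptor guanylyl cyclase and related genes (*gcy*), many of them used in sensory neurons, gave 17 higher and 6 lower of 24 (median log2 fold change 1.37, 1.83 with library totals alone). Their summed level was lower, at 139 to 150.2 CPM in wild type and 102 to 116 CPM in *rrf-3(pk1426)*, as was the sum over all genes. *gcy-37*, a soluble guanylyl cyclase of oxygen-sensing neurons, was at 0.615 and 0.915 CPM in wild type and 4.11, 4.26 and 3.36 CPM in *rrf-3(pk1426)* (log2 fold change 2.35, SE 0.223, adjusted p = 5.19e-05). The *idpp* genes gave 11 and 1 of 15 (median log2 fold change 1.14, 1.61 with library totals alone), and the *lido* genes 12 and 2 of 17 (median log2 fold change 1.31, 1.77 with library totals alone), with *lido-11* at 22.6 and 24.5 CPM in wild type and 96.6, 85.9 and 88 CPM in *rrf-3(pk1426)* (log2 fold change 1.94, SE 0.11, adjusted p = 7.36e-06).

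Cytosolic chaperone genes were among the rises. Of 13 tested heat shock genes 10 (76.9%) were called higher and 3 (23.1%) lower, against 31.9% and 35.8% of all genes (median log2 fold change 2.10, 2.58 with library totals alone). *hsp-1*, the constitutive HSP70, was at 273 and 329 CPM in wild type and 1185, 1202 and 984 CPM in *rrf-3(pk1426)* (log2 fold change 1.90, SE 0.135, adjusted p = 1.58e-05), *hsp-110*, its nucleotide exchange factor, at 36.1 and 46.2 CPM in wild type and 174, 207 and 149 CPM in *rrf-3(pk1426)* (log2 fold change 2.10, SE 0.176, adjusted p = 3.07e-05), and *hsp-90* at 719 and 797 CPM in wild type and 1807, 1930 and 1583 CPM in *rrf-3(pk1426)* (log2 fold change 1.23, SE 0.125, adjusted p = 7.23e-05). These are among the chaperones that the heat shock factor HSF-1 controls. The inducible *hsp-70* was at 3.79 and 7.53 CPM in wild type and 36.7, 44.8 and 32.2 CPM in *rrf-3(pk1426)* (log2 fold change 2.74, SE 0.308, adjusted p = 0.000114). The inducible small heat shock genes differed more between libraries of 1 genotype. *hsp-16.2* was at 23.5 and 49.5 CPM in wild type and 211, 308 and 161 CPM in *rrf-3(pk1426)* (log2 fold change 2.63, SE 0.365, adjusted p = 0.000338) and its neighbour *hsp-16.41* at 14 and 34.2 CPM in wild type and 114, 171 and 88.4 CPM in *rrf-3(pk1426)* (log2 fold change 2.36, SE 0.4, adjusted p = 0.00101). *hsp-17* rose too (log2 fold change 1.46, adjusted p = 8.79e-06). Falls were found in *hsp-12.6*, a small heat shock gene raised in dauer larvae and under starvation, at 658 and 805 CPM in wild type and 147, 157 and 181 CPM in *rrf-3(pk1426)* (log2 fold change -2.18, SE 0.137, adjusted p = 9.57e-06), and in *hsp-12.3*, at 184 and 291 CPM in wild type and 56.9, 51.1 and 66.6 CPM in *rrf-3(pk1426)* (log2 fold change -2.03, SE 0.186, adjusted p = 4.48e-05). The near-identical copies *T27E4.2*, *T27E4.3*, *T27E4.8* and *T27E4.9* of the *hsp-16* family share most or all of their sequence words, so their values are uncertain.

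Because the rises of the chaperone genes were large and shared, their start regions were searched for the heat shock element, 3 alternating inverted GAA repeats in the form GAANNTTCNNGAA or TTCNNGAANNTTC, which are reverse complements of each other, so both strands were covered. The window held the 250 bases before the annotated start of a gene and the first 50 bases from it, 300 bases in all. It held an element in 9 of the 10 heat shock genes called higher and in 0 of the 3 called lower, against 357 of 18864 windows of all genes tested (1.89%), 2.27% of those called higher and 1.75% of those called lower. Several of these genes share a region, since *hsp-16.2* and *hsp-16.41* are divergent and the copies above are alike, so the windows are not independent. The list was drawn up from heat shock genes, so its share of elements is not a result about the loss of *rrf-3*. A match is a description and not a binding site. Elements of 4 of the genes whose levels are given above are shown as examples of the match. They are printed 5′ to 3′ on the strand of the gene, with the element in capitals and 8 bases on either side, from the RefSeq genome of build WBcel235, at chrIV:17278807-17278835 (plus strand), chrIII:8447004-8447032 (minus strand), chrV:1805007-1805035 and chrV:1805161-1805189 (both minus strand) and chrV:14684825-14684853 (plus strand), in the same order.
hsp-1: cgaaattcGAATTTTCTAGAAtcccgcca
hsp-110: atttgctcGAAATTTCTAGAAaaatattt
hsp-16.2, nearer: agcagctcGAATGTTCTAGAAaaaggtgg
hsp-16.2, farther: gccttacaGAATGTTCTAGAAggtcctag
hsp-90: aacagtttTTCTCGAATGTTCtacaaaaa

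The first base of the element printed lies 144 bases before the start of *hsp-1*, 115 before *hsp-110*, 70 and 224 before *hsp-16.2* and 85 before *hsp-90*. The windows of *hsp-110* and *hsp-90* each held a further element, not printed, 237 and 15 bases before the start. *hsp-17* rose and held no element in its window.

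Other stress genes divided. Of 17 genes of organelle and oxidative stress 7 (41.2%) were called higher and 7 (41.2%) lower (median -0.05, 0.41 with library totals alone). These shares are not far from the 31.9% and 35.8% of all genes. *hsp-4*, the chaperone BiP of the endoplasmic reticulum, was at 29.3 and 37.8 CPM in wild type and 136, 150 and 123 CPM in *rrf-3(pk1426)* (log2 fold change 2.03, SE 0.144, adjusted p = 1.59e-05), and *sod-5*, a superoxide dismutase, at 3.77 and 3.91 CPM in wild type and 24.3, 22.1 and 19.9 CPM in *rrf-3(pk1426)* (log2 fold change 2.52, SE 0.149, adjusted p = 8.03e-06). *gst-4*, a glutathione S-transferase controlled by SKN-1, was at 53.9 and 33.8 CPM in wild type and 169.6, 185 and 157 CPM in *rrf-3(pk1426)* (log2 fold change 1.96, SE 0.249, adjusted p = 0.000215). Both metallothionein genes fell, *mtl-1* at 872 and 961 CPM in wild type and 358, 329.6 and 446 CPM in *rrf-3(pk1426)* (log2 fold change -1.28, SE 0.13, adjusted p = 7.15e-05) and *mtl-2* at 70.5 and 55.7 CPM in wild type and 18.5, 17.5 and 17.8 CPM in *rrf-3(pk1426)* (log2 fold change -1.81, SE 0.106, adjusted p = 7.6e-06). Of 22 tested genes for antimicrobial peptides and related secreted proteins 14 (63.6%) were called higher and 1 (4.55%) lower (median log2 fold change 1.18, 1.64 with library totals alone). Caenacin genes were among them, with *cnc-2* at 0.589 and 1.26 CPM in wild type and 16.4, 11.8 and 15 CPM in *rrf-3(pk1426)* (log2 fold change 3.95, SE 0.386, adjusted p = 5.92e-05) and *cnc-6* at 11.8 and 9.38 CPM in wild type and 39.3, 53.1 and 45.3 CPM in *rrf-3(pk1426)* (log2 fold change 2.12, SE 0.237, adjusted p = 0.000113). The 1 member that fell was *nlp-28*, at 670 and 615 CPM in wild type and 364, 382 and 498 CPM in *rrf-3(pk1426)* (log2 fold change -0.63, adjusted p = 0.00268), and it was not called with library totals alone (-0.18, adjusted p = 0.229).

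Markers of other cells and stages moved with the genotype. Of 12 germ line markers 9 were called higher and 1 lower (median log2 fold change 1.69, 2.15 with library totals alone), with a summed level of 96.8 to 109 CPM in wild type and 133 to 143 CPM in *rrf-3(pk1426)*. *glh-1*, a helicase of germ granules, was at 3.28 and 4.12 CPM in wild type and 23.1, 22.5 and 20.6 CPM in *rrf-3(pk1426)* (log2 fold change 2.57, SE 0.118, adjusted p = 4.83e-06), and *deps-1*, another granule protein gene, at 1.51 and 0.846 CPM in wild type and 7.1, 6.96 and 5.68 CPM in *rrf-3(pk1426)* (log2 fold change 2.48, SE 0.252, adjusted p = 7.05e-05). *mes-4* rose (log2 fold change 1.38, adjusted p = 7.33e-05), and *nos-2*, at 2.97 and 0.32 CPM in wild type and 0.363, 0.417 and 0.628 CPM in *rrf-3(pk1426)*, was not called. The call of *pgl-1* (log2 fold change 1.51, adjusted p = 0.0629) was lost without wild-type replicate 2 (0.77, adjusted p = 0.29) and without *rrf-3(pk1426)* replicates 1 or 3 (adjusted p = 0.116 and 0.103). The only call lower, of *cgh-1* (log2 fold change -0.58, adjusted p = 0.0364), was lost without wild-type replicate 1 or 2 or *rrf-3(pk1426)* replicate 2 (adjusted p = 0.111, 0.109 and 0.152) and with library totals alone (-0.12, adjusted p = 0.619). Of 12 embryo stage markers 9 were higher and 1 lower (median log2 fold change 1.40, 1.87 with library totals alone), with sums of 138 to 142 CPM in wild type and 184 to 199 CPM in *rrf-3(pk1426)*, and 5 were higher without wild-type replicate 2. *mex-3* was at 28.6 and 33.2 CPM in wild type and 67.6, 63 and 61.3 CPM in *rrf-3(pk1426)* (log2 fold change 1.05, SE 0.0901, adjusted p = 3.35e-05) and *end-3* at 0.487 and 0.435 CPM in wild type and 2.62, 2.96 and 1.93 CPM in *rrf-3(pk1426)* (log2 fold change 2.43, SE 0.275, adjusted p = 0.000116). *end-1* and *med-1*, which act for a short time in the early embryo, were at or under the floor in wild type and at most 1.25 and 0.417 CPM in *rrf-3(pk1426)*, and *med-1* shares 54.7% of its words with *med-2*, which was at 3.28 and 2.49 CPM in wild type and 1.66, 1.78 and 1.45 CPM in *rrf-3(pk1426)*. The part of germ cells, or of animals of another age, in these changes was not tested.

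Sex determination genes included large opposite changes. Of 16, 6 (37.5%) were called higher and 7 (43.8%) lower, not far from the 31.9% and 35.8% of all genes. Their median was -0.20, 0.27 with library totals alone, and 3 were higher without wild-type replicate 2. *her-1*, the secreted signal that directs male fates, was at 3.2 and 3.45 CPM in wild type and 29.5, 26.5 and 20.3 CPM in *rrf-3(pk1426)* (log2 fold change 2.93, SE 0.219, adjusted p = 1.92e-05). *tra-1*, the terminal regulator of female fates, was at 50.5 and 54.9 CPM in wild type and 18.8, 14.5 and 21.5 CPM in *rrf-3(pk1426)* (log2 fold change -1.53, SE 0.149, adjusted p = 5.83e-05). *fog-2*, which permits sperm in hermaphrodites, was at 1.05 and 0.618 CPM in wild type and 3.99, 4.99 and 3.27 CPM in *rrf-3(pk1426)* (log2 fold change 2.29, SE 0.299, adjusted p = 0.000251), *sdc-2*, of X-chromosome dosage compensation, at 8.12 and 10.6 CPM in wild type and 4.22, 4.85 and 4.4 CPM in *rrf-3(pk1426)* (log2 fold change -1.06, SE 0.19, adjusted p = 0.00136), and *xol-1*, the switch gene upstream of them, at 0.128 and 0.114 CPM in wild type and 0.611, 0.322 and 0.254 CPM in *rrf-3(pk1426)* (log2 fold change 1.68, SE 0.528, adjusted p = 0.0221), a call that was lost without wild-type replicate 2 (1.59, adjusted p = 0.12). Of 44 tested histone genes 24 (54.5%) were called higher and 5 (11.4%) lower, against 31.9% and 35.8% of all genes (median log2 fold change 0.81, 1.29 with library totals alone). Their summed level was 5835 to 5990.2 CPM in wild type and 4976 to 5451 CPM in *rrf-3(pk1426)*, and the sum over all genes was lower too. *his-72*, a replication-independent H3.3, was at 548 and 592 CPM in wild type and 1169.8, 1075 and 962 CPM in *rrf-3(pk1426)* (log2 fold change 0.91, SE 0.11, adjusted p = 0.00017), and the linker histone gene *hil-1* fell, at 703 and 743 CPM in wild type and 237, 200.3 and 278 CPM in *rrf-3(pk1426)* (log2 fold change -1.60, SE 0.123, adjusted p = 2.13e-05). Since poly(A) RNA was selected, histone mRNAs without a poly(A) tail are counted in part only.

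Most genes listed as pharynx markers rose, and most of those listed for body wall muscle fell on the TMM scale. Of 6 pharynx markers 5 were called higher and 0 lower (median log2 fold change 1.76, 2.23 with library totals alone), with sums of 64.7 to 72 CPM in wild type and 174 to 207 CPM in *rrf-3(pk1426)*. The pharyngeal myosin genes *myo-2* and *myo-1* were at 5.33 and 7.16 CPM in wild type and 33.7, 36.3 and 32 CPM in *rrf-3(pk1426)* (log2 fold change 2.44, SE 0.223, adjusted p = 4.4e-05) and at 7.69 and 8.1 CPM in wild type and 32.8, 40.8 and 31.8 CPM in *rrf-3(pk1426)* (log2 fold change 2.15, SE 0.239, adjusted p = 0.000108), and pharyngeal troponin C, *tnc-2*, at 21.6 and 21 CPM in wild type and 88.3, 87.1 and 72.9 CPM in *rrf-3(pk1426)* (log2 fold change 1.96, SE 0.115, adjusted p = 7.7e-06). Of 8 body wall muscle markers 1 was higher and 6 lower (median log2 fold change -0.72, -0.28 with library totals alone), the 6 being 3 without wild-type replicate 2 and 2 with library totals alone. *unc-54*, the major myosin heavy chain, was at 545 and 900.2 CPM in wild type and 187, 192 and 261 CPM in *rrf-3(pk1426)* (log2 fold change -1.76, SE 0.335, adjusted p = 0.0019), and *mlc-2*, a myosin light chain, at 6215 and 6694 CPM in wild type and 2887, 2315 and 3376 CPM in *rrf-3(pk1426)* (log2 fold change -1.17, SE 0.147, adjusted p = 0.000203), while *tnt-3* rose (log2 fold change 0.70, adjusted p = 0.000643).

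Markers used in all neurons and several gene families of the nervous system were mostly lower. Most *gcy* genes, given above, were called higher, though their summed level was lower, as was that of all genes. Of 12 markers used in all neurons 11 were called lower and 1 higher (median log2 fold change -0.80, -0.34 with library totals alone), with a summed level of 2299.7 to 2508 CPM in wild type and 1291 to 1459 CPM in *rrf-3(pk1426)*, and 8 were lower with library totals alone. The largest falls were in the neuropeptide-processing enzymes *egl-3*, a proprotein convertase, at 514 and 623 CPM in wild type and 168, 160.1 and 209.8 CPM in *rrf-3(pk1426)* (log2 fold change -1.67, SE 0.145, adjusted p = 3.57e-05), and *egl-21*, a carboxypeptidase, at 717 and 753 CPM in wild type and 299.8, 272 and 328 CPM in *rrf-3(pk1426)* (log2 fold change -1.29, SE 0.0859, adjusted p = 1.21e-05). *unc-104*, the kinesin that carries synaptic vesicle precursors, was at 55 and 55.5 CPM in wild type and 25, 24.3 and 29.8 CPM in *rrf-3(pk1426)* (log2 fold change -1.07, SE 0.092, adjusted p = 3.45e-05), and *snt-1*, synaptotagmin, at 72.1 and 74.7 CPM in wild type and 37.6, 38.2 and 43.5 CPM in *rrf-3(pk1426)* (log2 fold change -0.88, SE 0.0771, adjusted p = 3.61e-05). *snb-1*, synaptobrevin, was the exception, at 387 and 419.6 CPM in wild type and 473, 449 and 459 CPM in *rrf-3(pk1426)* (log2 fold change 0.19, SE 0.0767, adjusted p = 0.0564), but it was not called without wild-type replicate 1 (log2 fold change 0.13, adjusted p = 0.326), without *rrf-3(pk1426)* replicate 1 (0.17, adjusted p = 0.138) or with either replicate block. Of 16 *mec* genes, named for touch receptor neurons, 14 were lower and 1 higher (median log2 fold change -0.82, -0.37 with library totals alone), with *mec-3*, their homeodomain regulator, at 27.9 and 30 CPM in wild type and 14.6, 12.8 and 15.8 CPM in *rrf-3(pk1426)* (adjusted p = 6.17e-05). The families of neuropeptide receptors *npr* (7 higher and 28 lower of 43, median log2 fold change -0.79, -0.33 with library totals alone) and *dmsr* (1 and 11 of 14, median log2 fold change -0.80, -0.34 with library totals alone), of potassium channels *twk* (4 and 29 of 42, median log2 fold change -0.62, -0.16 with library totals alone), of regulators of G protein signalling *rgs* (1 and 8 of 10, median log2 fold change -0.66, -0.21 with library totals alone) and of globins *glb* (4 and 24 of 34, median log2 fold change -0.70, -0.24 with library totals alone) lay the same way. The *unc* genes gave 20 and 63 of 94, with a median of -0.44 that became 0.03 with library totals alone. Other families were less one-sided, with 11 higher and 17 lower of 31 *flp* and 26 and 33 of 71 *nlp* neuropeptide genes, and 15 and 20 of 49 *lgc* genes. The *ins* genes, given below, had more rises than falls, with 17 and 4 of 36.

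Intestine and skin markers were mixed. Of 9 intestine markers 2 (22.2%) were higher and 5 (55.6%) lower, against 31.9% and 35.8% of all genes (median log2 fold change -0.67, -0.22 with library totals alone). Among them *asp-1*, a digestive aspartic protease, was at 4929 and 5320.1 CPM in wild type and 1843, 1052 and 2693 CPM in *rrf-3(pk1426)* (log2 fold change -1.46, SE 0.303, adjusted p = 0.00301). *act-5*, the actin of microvilli, was at 175 and 205 CPM in wild type and 269.8, 208 and 309.6 CPM in *rrf-3(pk1426)* (log2 fold change 0.47, SE 0.151, adjusted p = 0.0243), not called without wild-type replicate 1 (0.35, adjusted p = 0.167). The intestinal regulator *elt-2* was at 19 and 23.5 CPM in wild type and 20.6, 16.8 and 22.3 CPM in *rrf-3(pk1426)*, with overlapping groups. Of 8 tested hypodermis and seam markers 1 was higher and 4 lower, with a median of -0.34, 0.12 with library totals alone. *elt-3*, a GATA factor of the hypodermis, was at 124 and 123 CPM in wild type and 61, 50.2 and 73.3 CPM in *rrf-3(pk1426)* (log2 fold change -1.01, SE 0.132, adjusted p = 0.00025). Of 5 glia markers 2 (40%) were called in each direction, against 31.9% and 35.8% of all genes (median log2 fold change -0.58, -0.11 with library totals alone). Aspartic protease genes (*asp*) gave 1 higher and 11 lower of 14 (median log2 fold change -0.94, -0.49 with library totals alone), and aldehyde dehydrogenase genes (*alh*) 1 and 10 of 12 (median log2 fold change -0.70, -0.24 with library totals alone).

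Ribosomal protein genes fell almost without exception and by a similar amount on the TMM scale. Of 81, 76 (93.8%) were called lower and 0 higher (median log2 fold change -0.62, -0.16 with library totals alone), and with library totals alone 26 were lower and 4 higher. They held 29.1% and 31.6% of the library totals in wild type and 25.2% to 28.6% in *rrf-3(pk1426)*, so the groups did not overlap on that scale. Of the 148 genes at 1000 CPM or more, ribosomal protein genes among them, 92.6% were called lower (median log2 fold change -0.65). The part of level in the ribosomal falls was not tested. *rps-4* was at 3209 and 3044 CPM in wild type and 1893, 1413 and 1972 CPM in *rrf-3(pk1426)* (log2 fold change -0.83, SE 0.151, adjusted p = 0.0015), and *rpl-24.2* at 1105 and 1197 CPM in wild type and 783, 726 and 759 CPM in *rrf-3(pk1426)* (log2 fold change -0.61, SE 0.083, adjusted p = 0.000313). Nuclear genes of mitochondrial proteins lay the same way on the TMM scale. Of 14 *cox* genes, for cytochrome c oxidase and its assembly, 12 were lower and 0 higher (median log2 fold change -0.65, -0.19 with library totals alone), and of 40 *mrpl* genes, for the large subunit of the mitochondrial ribosome, 31 were lower and 2 higher, with a median of -0.38 that became 0.08 with library totals alone. *cox-6A* was at 707 and 742 CPM in wild type and 439, 364 and 460.4 CPM in *rrf-3(pk1426)* (log2 fold change -0.78, SE 0.126, adjusted p = 0.000766).

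The largest falls were in cuticle genes, in which the wild-type libraries stood far apart. Of the 187 genes over 4-fold lower, 29 are named *col*, *dpy*, *bli* or *rol*, for collagens and other cuticle proteins, and in 23 of these wild-type replicate 1 was over 4-fold above replicate 2. *dpy-4* was at 108 and 6.61 CPM in wild type and 0.878, 1.18 and 1 CPM in *rrf-3(pk1426)* (log2 fold change -5.81, SE 1.04, adjusted p = 0.00135), *dpy-13* at 129 and 7.62 CPM in wild type and 1.81, 2.54 and 1.35 CPM in *rrf-3(pk1426)* (log2 fold change -5.17, SE 1.05, adjusted p = 0.00273) and *col-138* at 17.7 and 1.6 CPM in wild type and 0.134, 0.0569 and 0.0598 CPM in *rrf-3(pk1426)* (log2 fold change -6.83, SE 1.35, adjusted p = 0.00233). Larvae express such genes in short pulses that go with each molt. Of the 187 genes, 105 were called lower without wild-type replicate 1 and 171 without replicate 2. Among the 12 largest falls, *col-73*, *bli-6*, *col-156* and *col-41* were not called without replicate 1, with log2 fold changes of -1.81, -2.80, -1.68 and -1.24 and adjusted p values of 0.139, 0.143, 0.159 and 0.233.

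Over the whole *col* family, 34 genes (23.1%) were called higher and 54 (36.7%) lower of 147 tested, against 31.9% and 35.8% of all genes. The median log2 fold change was -0.52, -0.08 with library totals alone. The 54 became 23 without wild-type replicate 1 and 34 without *rrf-3(pk1426)* replicate 2. Some collagen genes had close wild-type libraries and still fell, such as *col-118*, at 1166 and 1302 CPM in wild type and 333, 237 and 402 CPM in *rrf-3(pk1426)* (log2 fold change -1.93, SE 0.187, adjusted p = 5.69e-05), and *col-153*, at 66.1 and 76.9 CPM in wild type and 15.5, 14.3 and 19.7 CPM in *rrf-3(pk1426)* (log2 fold change -2.12, SE 0.127, adjusted p = 8.51e-06). Others rose, such as *col-113*, at 15.7 and 13.1 CPM in wild type and 67.7, 57.8 and 64.5 CPM in *rrf-3(pk1426)* (log2 fold change 2.14, SE 0.196, adjusted p = 4.36e-05). Of the 6 furrow collagen genes 5 were called higher and 0 lower (median log2 fold change 1.25, 1.73 with library totals alone), with *dpy-10* at 9.56 and 3.66 CPM in wild type and 21.7, 25.9 and 16.7 CPM in *rrf-3(pk1426)* (log2 fold change 1.70, SE 0.363, adjusted p = 0.00346). The furrow collagens pattern the ring-shaped furrows of the cuticle, and they are expressed at another time of the molting cycle than *dpy-13*.

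**Figure D4:**
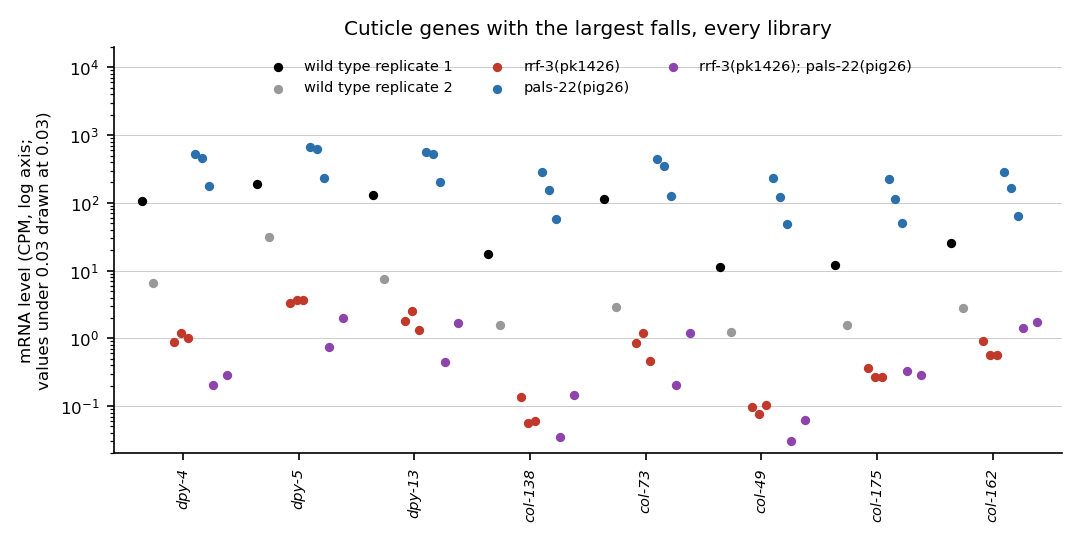
Levels of 8 cuticle genes in the 10 libraries of the 4 genotypes, in CPM on a logarithmic axis, with 1 point per library. The *pals-22(pig26)* points lie highest and those of *rrf-3(pk1426)* and the double mutant lowest, and wild-type replicate 1 lies well above replicate 2 in each of the 8 genes.

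In the plot of cuticle genes, *pals-22(pig26)* lay above wild type, and *rrf-3(pk1426)* and the double mutant lay below it. Libraries of *rrf-3(pk1426)* and the double mutant overlapped in some genes but not in *dpy-4*. In *col-175* they were at 0.363, 0.265 and 0.269 CPM in *rrf-3(pk1426)* and 0.33 and 0.288 CPM in the double mutant. *dpy-4* was at 108 and 6.61 CPM in wild type, 0.878, 1.18 and 1 CPM in *rrf-3(pk1426)*, 525, 453 and 178 CPM in *pals-22(pig26)* and 0.208 and 0.288 CPM in the double mutant. Vitellogenin genes, for yolk proteins, gave 3 lower and 0 higher of 6 (median log2 fold change -2.48, -2.01 with library totals alone) from a low level (sums of 2.72 to 13.7 CPM in wild type and 1.3 to 2.12 CPM in *rrf-3(pk1426)*), and none was called without wild-type replicate 1 or without *rrf-3(pk1426)* replicate 1. Of 77 tested sperm genes 3 were higher and 16 lower (median log2 fold change -1.80, -1.32 with library totals alone), and the 16 became 5 without wild-type replicate 1, 9 and 10 without *rrf-3(pk1426)* replicates 1 and 3. *nspc-9* was at 4.94 and 1.58 CPM in wild type and 0.191, 0.19 and 0.284 CPM in *rrf-3(pk1426)* (log2 fold change -3.84, SE 0.795, adjusted p = 0.00297), and *nspb-12*, 1 of the 3 that rose, from 13.2 and 19.5 CPM to at least 74.7 CPM (log2 fold change 2.46, SE 0.217, adjusted p = 3.78e-05).

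Antisense small RNA levels are those of wild type, from its 3 N2 small RNA libraries and over all lengths and classes of the reads kept, and say nothing of small RNA in *rrf-3(pk1426)*. Among all genes tested with a small RNA row, 31.0% held over 5 RPM and 2.35% over 100 RPM. The shares over 100 RPM were 3.88% of genes called higher, 1.63% of those called lower and 1.65% of those not called. Read from the other side, 30.5% of 13026 genes with up to 5 RPM were higher and 35.0% lower (median log2 fold change -0.02), 50.6% and 27.7% of 350 genes with 100 to 500 RPM (0.54), and 60.6% and 13.8% of 94 genes over 500 RPM (0.92). Over 5 RPM were held by 19.6% of the genes over 4-fold higher and by 3.21% of those over 4-fold lower.

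The loss of *rrf-3* was also measured in animals that lack PALS-22, from libraries that the comparison in wild type does not share. There 3520 genes (18.5%) were higher and 3232 (17.0%) lower in the double mutant than in *pals-22(pig26)*. Of the genes called higher in wild type 2925 were higher there too, 48.3% of those 6055 and 83.1% of the 3520, and of the genes called lower 2435 were lower there, 35.8% of the 6804 and 75.3% of the 3232. The change itself differed between both backgrounds in 7054 genes (37.2%) by the interaction term of the same fit (21.5% with a positive and 15.7% with a negative difference), 2654 of the 6055 genes with a smaller rise or a fall in *pals-22(pig26)*, and 3790 of the 6804 with a smaller fall or a rise. This count was 4636 without wild-type replicate 2.

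In each background most ERGO-1 targets were called higher. In *pals-22(pig26)* 21 of 30 were higher and 1 lower (median 1.27), with *E01G4.5* at a log2 fold change 5.21, SE 0.144, adjusted p = 7.92e-07, *F39E9.7* at a log2 fold change 3.47, adjusted p = 3.22e-06 and *T02G6.10*, from outside the list, at a log2 fold change 3.68, adjusted p = 3.73e-06. The change differed between both backgrounds in 15 of the 30 by the interaction term, 6 with a positive and 9 with a negative difference. The *pals* and response genes, which are already high without PALS-22, changed the other way, 28 of 38 *pals* genes lower and 1 higher (median -0.51) and 28 of 38 response genes lower and 2 higher (median -0.56). *pals-1* had a log2 fold change -0.61, SE 0.0876, adjusted p = 0.00237. The ribosomal protein genes gave 2 lower and 0 higher of 81 there (median -0.11), the proteasome 8 higher and 1 lower of 33 (0.04), and the neuron markers 8 lower and 1 higher of 12 (-0.35). *hsp-1* had a log2 fold change 0.37, SE 0.125, adjusted p = 0.061, and *her-1* a log2 fold change 0.98, SE 0.187, adjusted p = 0.00748. The 12 cuticle and other genes with the largest falls also fell there, as *dpy-4* (log2 fold change -10.60, adjusted p = 0.00237). Among the small RNA genes, *vsra-1* rose in both backgrounds (log2 fold change 1.47, adjusted p = 8.21e-05 in *pals-22(pig26)*), *ppw-1* rose in wild type and fell in *pals-22(pig26)* (log2 fold change -0.26, adjusted p = 0.0606), and *rrf-3* itself was lower there by a similar amount (log2 fold change -1.45, adjusted p = 0.000905).

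**Figure D5:**
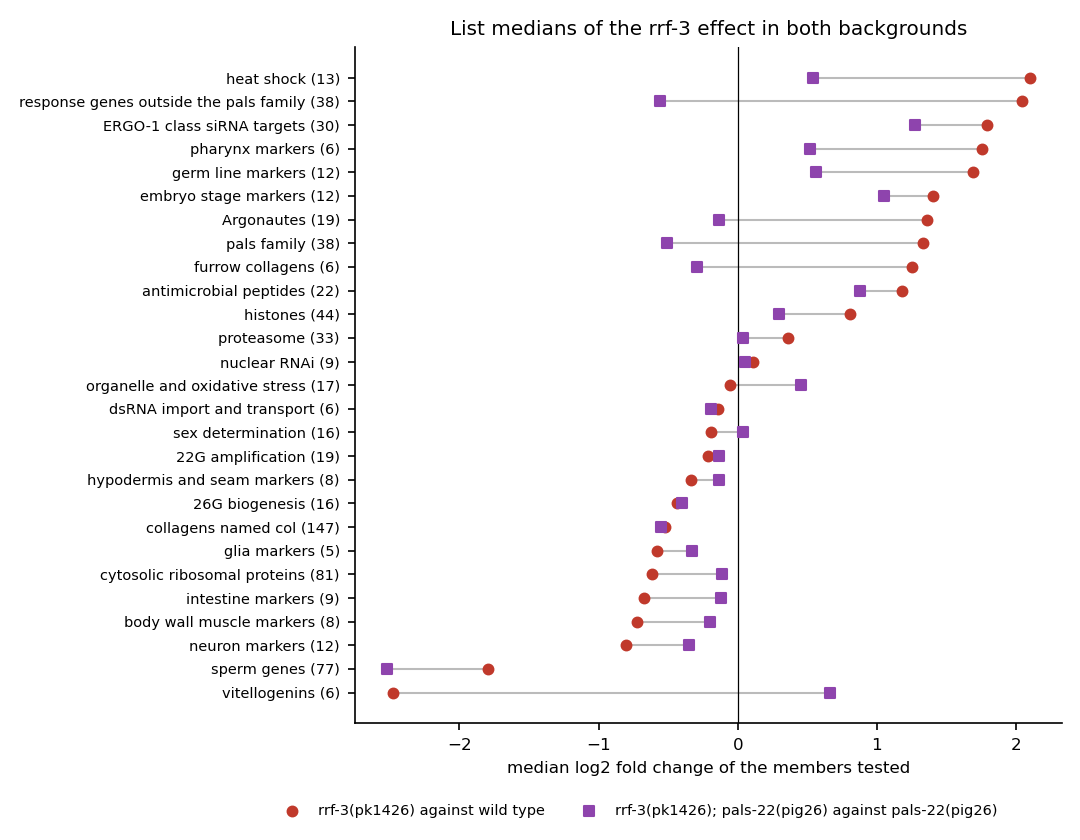
Median log2 fold change of each gene list for *rrf-3(pk1426)* against wild type (circles) and for the double mutant against *pals-22(pig26)* (squares), joined by a line. The ERGO-1 targets lie above 0 in both, at 1.79 and 1.27, whereas the *pals* family lies at 1.33 and -0.51 and the ribosomal proteins at -0.62 and -0.11.

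In the plot of both backgrounds most lists lie nearer to 0 in *pals-22(pig26)*, with the sperm genes (-1.80 and -2.52) among the exceptions. Genes of the mitochondrial genome, not drawn there, had medians of -0.89 and -0.87.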

How the data were processed

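The mRNA values that the authors deposited are estimated counts from kallisto, run within RNAlysis, and scaled per gene. Their kallisto version and transcript set are not given in the sources used here. Of the N2 values 91.9% were not whole, and all were rounded. For small RNA, the authors deposited read counts per gene from featureCounts on build ce11, and they were divided by library totals to give RPM. Gene positions are from Ensembl release 115 (WBcel235), which lacked 171 of 22013 entries.

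The 10 N2 mRNA libraries were fitted together with edgeR 4.0.16 in R 4.3.3 (quasi-likelihood test, TMM, filterByExpr with a minimum count of 10 and total of 15, 1 coefficient per genotype, no covariate). Adjusted p values are two-sided, by Benjamini-Hochberg over all 18986 genes tested, and a gene was called at an adjusted p under 0.1. SEs are those of the log2 fold change. The members, gene lists and tests were chosen with earlier results of these data known, so counts over lists are descriptions with no test. Named genes are *rrf-3*, the 12 largest rises and falls among called genes with groups that do not overlap and at least 5 CPM, and up to 4 members per list or leading name family and direction with the smallest p. All members of lists of 16 or fewer could be named. *pals-22*, *K02E2.6*, *C44B11.6* and *fbxb-37* were added outside this rule, after their values were seen. Genes that share 31-base words with others are given as uncertain. The fit was tested on simulated data. DESeq2 1.42.0, limma 3.58.1, other scalings, no filter, replicate blocks, only the compared groups and leaving out each library were alternatives. For wild type and the double mutant the replicate number differs between title and library name, and the title's was used.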

Additional observations from a re-analysis of the deposited data

Results flagged for a closer look

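Of the 168 named genes tested, 113 changed by different amounts with the loss of *rrf-3* depending on whether PALS-22 was present, at an adjusted p under 0.1 for the interaction term in edgeR, and in 32 of these the 2 log2 fold changes had opposite signs. By comparison, 7054 of all 18986 genes (37.2%) were called, and the named genes were chosen for large or clear changes in wild type, so a high share among them is not a result about them. The values are the difference as coded, the log2 fold change of the double mutant against *pals-22(pig26)* less that of *rrf-3(pk1426)* against wild type, so a negative value is a smaller rise, a larger fall or a change of direction without PALS-22.

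Among targets of ERGO-1 class siRNAs, it was -2.04 for *F55C9.3*, -0.64 for *E01G4.5*, -0.53 for *H16D19.4*, 0.68 for *F55A4.4* and 0.52 for *Y37E11B.2*. For genes with the largest rises (*F55C9.5* is also a target), it was -2.0 for *F55C9.5*, -1.94 for *T16A1.10*, -0.93 for *Y105C5A.1271*, -1.07 for *sdz-1*, -5.43 for *C08E3.15*, -5.54 for *W04G5.16* and -0.96 for *T02G6.10*. In *pals* genes, it was -4.33 for *pals-1*, -4.39 for *pals-11*, -3.44 for *pals-29*, -3.22 for *pals-7*, 0.86 for *pals-18*, 0.34 for *pals-31*, 0.49 for *pals-19* and 0.27 for *pals-25*. Among other response genes, it was -1.80 for *Y94H6A.2*, -3.81 for *Y37H2A.14*, -2.81 for *skr-4*, -3.43 for *eol-1* and 0.52 for *zip-1*. For genes of the 26G machinery, it was 0.36 for *eri-1*, 0.49 for *eri-6*, 0.33 for *eri-7*, 0.31 for *henn-1*, 0.60 for *gtsf-1* and 0.46 for *pir-1*. In Argonaute genes, it was -3.25 for *sago-2*, -1.87 for *ppw-1* and -1.97 for *ppw-2*. Among genes of 22G amplification, it was -0.92 for *nyn-1*, -0.61 for *mut-7*, -0.80 for *ekl-1* and 0.34 for *rde-8*. For nuclear RNAi genes, it was -1.49 for *hrde-1*, -1.73 for *set-32* and 0.31 for *nrde-4*. In double-stranded RNA import genes, it was -0.98 for *sid-1* and 0.39 for *rsd-3*. Among genes of name families with many rises, it was -1.80 for *bath-29*, -1.86 for *bath-36*, -1.91 for *fbxc-55*, -2.08 for *fbxc-58*, -1.05 for *npp-9*, -0.54 for *prp-31*, -0.77 for *rpn-3*, -1.57 for *gcy-37* and -3.07 for *idpp-9*. For heat shock genes, it was -1.51 for *hsp-17*, -1.53 for *hsp-1*, -1.56 for *hsp-110*, -0.72 for *hsp-90*, 1.04 for *hsp-12.6* and 1.42 for *hsp-12.3*. In genes of organelle and oxidative stress, it was -1.19 for *sod-5*, -2.03 for *hsp-4*, 1.54 for *mtl-2* and 1.19 for *mtl-1*.

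Among antimicrobial peptide genes, it was -1.85 for *cnc-2*, -0.61 for *abf-2* and 1.21 for *nlp-28*. For histone genes, it was -0.67 for *his-60*, 1.23 for *hil-1* and 0.71 for *his-71*. In germ line markers, it was -1.81 for *glh-1*, -1.68 for *deps-1* and -0.76 for *mes-4*. Among embryo stage markers, it was -0.49 for *mex-3*, -3.24 for *end-1* and 1.12 for *med-2*. For sex determination genes, it was -1.96 for *her-1*, -1.26 for *fog-2* and 0.86 for *tra-1*. In pharynx markers, it was -0.99 for *tnc-2*, -1.86 for *myo-2* and -1.83 for *myo-1*. Among body wall muscle markers, it was 0.92 for *mlc-2* and -0.77 for *tnt-3*. For neuron markers, it was 0.74 for *egl-21*, 0.57 for *unc-104*, 1.0 for *egl-3* and 0.49 for *snt-1*. In intestine markers, it was 0.76 for *ifb-2*, 0.70 for *elt-7*, 1.23 for *asp-1* and -0.68 for *act-5*. Among hypodermis and seam markers, it was 0.73 for *ceh-16* and 0.76 for *elt-3*. For genes of name families with many falls, it was 0.66 for *cox-6A*, 0.67 for *cox-10*, 0.58 for *mec-3*, 0.68 for *mec-2*, 1.20 for *alh-3* and 1.86 for *asp-14*. In genes with the largest falls, it was -4.79 for *dpy-4*, -3.62 for *dpy-5* and -4.21 for *col-175*. Among other *col* genes, it was -1.07 for *col-44*, -1.11 for *col-113*, 1.36 for *col-153* and 1.30 for *col-118*. For furrow collagen genes, it was -1.49 for *dpy-10*, -2.75 for *dpy-8* and -1.49 for *dpy-2*. In vitellogenin genes, it was 3.49 for *vit-6* and 4.63 for *vit-2*. Single members of 3 further lists were at -0.93 (*nspb-12*), -0.72 (*rpt-2*), 0.65 (*rpl-24.2*).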

How the results depend on the processing

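The counts of 6055 higher and 6804 lower genes were 9071 and 3110 with library totals alone, which was the only scaling, filter or tool that moved either by over 1.5 times. Leaving out each of the 5 libraries in turn gave 5127 to 6001 genes higher and 5724 to 6716 lower. Interaction calls, 7054 in all, ranged from 4636 (without wild-type replicate 2) to 7917 under the same omissions, which were added after seeing the data. Over these omissions the log2 fold change of *rrf-3* ranged from -1.69 to -1.49, and it was -1.12 with library totals alone. The cause of these shifts was not tested.

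Of 168 named genes, 40 changed call or sign under at least 1 of 15 settings. With library totals alone the sign reversed for *Y37E11B.2* (0.31), *pals-25* (0.0123), *pals-22* (0.16), *math-39* (0.0008), *drh-3* (0.38), *eri-1* (0.10), *pir-1* (0.16), *nrde-4* (0.0061) and *elt-2* (0.36), and with upper-quartile factors for *Y37E11B.2* (0.023), *drh-3* (0.10) and *elt-2* (0.0812). With library totals alone *ergo-1*, *eri-3*, *eri-9*, *dcr-1*, *alg-1*, *csr-1*, *rde-1*, *rde-8*, *rsd-3*, *nlp-28*, *cgh-1*, *med-2*, *elt-7* and *rpl-24.2* lost their calls. When single libraries were left out, changes of 5 genes that were not called in the full fit crossed 0, over ranges of -0.13 to 0.0497 (*drh-3*), -0.0027 to 0.47 (*eri-5*), -0.0362 to 0.0946 (*henn-1*), -2.66 to 0.55 (*nos-2*) and -0.25 to 0.10 (*elt-2*).

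Replicate numbers are shared by 2 pairs only. Deviations of same-numbered libraries correlated at -0.06 and -0.07 by title and 0.07 and 0.02 by library name. With 2 wild-type libraries, the deviations of 1 mirror those of the other. These values therefore cannot decide whether the numbers pair the libraries. A replicate block by title gave 5830 higher and 6587 lower genes, and a block by library name 5744 and 6451. The 7054 interaction calls became 6232 with the block by title and 4804 with the block by library name.

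With 2 wild-type libraries, 1 decides many low or cuticle genes. Genes under about 0.08 CPM, the floor of 3 counts, cannot be told from absent reads.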

Other observations

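Insulin-like peptide genes (*ins*), the ligands of the receptor DAF-2, gave 17 calls higher and 4 lower of 36 tested (median log2 fold change 1.33, 1.81 with library totals alone). Their summed level was 732 to 760 CPM in wild type and 423 to 449.8 CPM in *rrf-3(pk1426)*, and the sum over all genes was lower too. Nuclear hormone receptor genes (*nhr*), a family of transcription factors, gave 60 higher (26.3%) and 122 lower (53.5%) of 228, against 31.9% and 35.8% of all genes. Their median of -0.37 became 0.09 with library totals alone. Of 162 name families with at least 10 members tested, 67 had a median that changed sign with library totals alone.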
